A study of Mus musculus with 2 samples.

Results

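The genes described here carry glucose into the cell, break it down to pyruvate and lactate, and pass pyruvate on to the mitochondrion. They were chosen by name, as 32 genes of glucose uptake, glycolysis and lactate handling among the 32285 genes counted, and all 32 were found in both libraries. Their transcripts were measured by 5′ single-cell RNA sequencing of hippocampal cells from mice 4 weeks old that received no treatment. There was 1 wild-type library and 1 Crlf3-mutant library, the mutant mice carrying the L389P change in Crlf3, a gene for a cytokine receptor-like protein. Each library pooled 4 hippocampi of 2 mice. The tissue was dissociated with enzymes, cleared of debris and myelin, and sorted for live cells with the dye 7-AAD, so the levels are those of cells that came through these steps. With 1 library per genotype no difference between genotypes can be tested, no p-value is given, and the animals of a pool are not separate samples.

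Glucose enters brain cells through carriers of the SLC2A (GLUT) family, and a hexokinase traps it as glucose 6-phosphate. Phosphofructokinase commits the sugar to glycolysis, aldolase splits it, and the enzymes from triose-phosphate isomerase to pyruvate kinase yield pyruvate, which lactate dehydrogenase interconverts with lactate. Monocarboxylate carriers of the SLC16A family move lactate across the membrane, the mitochondrial pyruvate carrier brings pyruvate to pyruvate dehydrogenase, and pyruvate dehydrogenase kinases switch that enzyme off. Many of these steps are served by several genes with different tissue distributions, and in the brain the blood vessel wall, astrocytes and neurons are known for different sets of them.

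After filtering and removal of called doublets there were 7115 wild-type and 5261 Crlf3-mutant cells, with a median of 6193 and 7375 unique molecular identifiers (UMIs, counted transcripts) per cell, and 64 cell barcodes occurred in both libraries. Cells were put in classes by the summed UMIs of marker genes, none of them among the 32, and 8 classes were described: microglia (4424 wild-type and 3231 mutant cells), border macrophages (67 and 22), astrocytes (771 and 485), the neuron lineage of progenitors and neuroblasts (171 and 223), endothelial cells (806 and 790), mural cells of the vessel wall (131 and 170), choroid plexus epithelium (427 and 145) and ependymal cells (43 and 17). Mature excitatory neurons numbered 3 and 2 cells, and no mature inhibitory neuron or oligodendrocyte was found, so their glucose genes are not described, and the labelled tissue was represented by its glia, vessels, ventricle lining and young neurons. The choroid plexus cells with a sex-specific transcript were nearly all of 1 sex in both libraries (204 and 66 with a Y-linked transcript and no Xist, 4 and 1 with Xist and no Y-linked transcript), and how much each animal of a pool gave to this class was not tested. Levels are given as CPM, UMIs per 1000000 UMIs of the class, summed over its cells, with the wild-type value first and the mutant value second. Each UMI marks 1 transcript's 5′ end whatever its length, so levels of different genes are set side by side on this CPM scale, and intervals are exact Poisson 95% intervals that cover counting error only.

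The starts of 7 genes that the results turn on are shown first, since they differed between classes in which gene of a step was used. RefSeq (GRCm38.p6) gave a promoter window for 30 of the 32 genes. Where it gave several, the window nearest the 5′ end of the GENCODE gene model was taken, as for Hk1 and Ldha with 2 windows each. Which start these cells used was not tested. Each sequence is the 250 bases before the RefSeq transcription start, 5′ to 3′ on the gene's own strand, in lower case, with capitals marking matches on either strand to ACGTG, the core of the hypoxia response element, or to GAGGAA, a core of sites of the myeloid factor PU.1. Slc2a1 encodes GLUT1, the carrier of the blood-brain barrier, and its window is chr4:119108495-119108744 on the plus strand. Slc2a5 encodes GLUT5, a fructose carrier, and its window is chr4:150119094-150119343 on the plus strand. Hk1, Hk2 and Hk3 encode hexokinases, with windows on the minus strand at chr10:62379909-62380158, chr6:82774455-82774704 and chr13:55021386-55021635. Ldha and Ldhb encode the lactate dehydrogenase subunits that predominate in muscle and in heart, with windows at chr7:46845554-46845803 on the plus strand and chr6:142507958-142508207 on the minus strand.
Slc2a1: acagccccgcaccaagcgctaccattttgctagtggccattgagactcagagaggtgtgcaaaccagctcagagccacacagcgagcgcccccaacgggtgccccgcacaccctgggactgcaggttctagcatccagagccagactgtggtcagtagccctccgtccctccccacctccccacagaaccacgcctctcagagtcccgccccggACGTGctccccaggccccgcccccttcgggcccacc
Slc2a5: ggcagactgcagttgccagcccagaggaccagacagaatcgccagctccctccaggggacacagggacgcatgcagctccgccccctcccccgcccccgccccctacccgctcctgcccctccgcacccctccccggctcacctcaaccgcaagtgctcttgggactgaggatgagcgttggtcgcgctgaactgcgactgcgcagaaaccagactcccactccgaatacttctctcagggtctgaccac
Hk1: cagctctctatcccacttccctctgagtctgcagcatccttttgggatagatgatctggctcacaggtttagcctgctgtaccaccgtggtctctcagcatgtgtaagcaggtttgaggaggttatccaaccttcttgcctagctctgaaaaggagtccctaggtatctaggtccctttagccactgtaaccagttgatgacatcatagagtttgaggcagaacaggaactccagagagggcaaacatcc
Hk2: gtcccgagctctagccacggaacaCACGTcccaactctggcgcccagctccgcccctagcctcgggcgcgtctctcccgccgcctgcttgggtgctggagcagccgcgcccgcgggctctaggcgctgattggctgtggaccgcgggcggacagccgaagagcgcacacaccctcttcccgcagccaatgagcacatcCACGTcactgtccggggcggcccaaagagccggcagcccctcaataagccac
Hk3: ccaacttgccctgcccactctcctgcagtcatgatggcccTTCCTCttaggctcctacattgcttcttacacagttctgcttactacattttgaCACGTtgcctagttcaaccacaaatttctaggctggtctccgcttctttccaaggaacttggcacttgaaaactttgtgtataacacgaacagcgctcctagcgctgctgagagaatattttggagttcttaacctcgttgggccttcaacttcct
Ldha: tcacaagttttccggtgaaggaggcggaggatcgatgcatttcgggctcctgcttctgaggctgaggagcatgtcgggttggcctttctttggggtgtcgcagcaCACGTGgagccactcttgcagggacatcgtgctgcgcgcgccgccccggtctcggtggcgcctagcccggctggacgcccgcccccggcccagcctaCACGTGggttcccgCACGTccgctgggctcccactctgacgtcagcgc
Ldhb: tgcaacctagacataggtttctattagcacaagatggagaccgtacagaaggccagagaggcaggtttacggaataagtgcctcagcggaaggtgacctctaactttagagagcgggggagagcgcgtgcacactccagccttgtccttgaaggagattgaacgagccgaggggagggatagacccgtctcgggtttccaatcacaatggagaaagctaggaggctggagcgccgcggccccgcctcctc
Ldha held 5 matches to ACGTG in its window, 2 pairs of which overlap because the palindrome CACGTG matches on both strands. Hk2 held 2, Slc2a1 and Hk3 held 1 each, and Slc2a5, Hk1 and Ldhb held none, while GAGGAA was found in the Hk3 window alone among these 7. Over the 30 windows ACGTG was present in 11 (36.7%), beside 16.6% of 32851 windows of this length, and GAGGAA in 5 (16.7%), beside 23.3%. A match is a description of the letters and not a site of binding. In the GENCODE gene model of the same build, Slc2a1 begins 34 bases and Slc2a5 61 bases before the RefSeq start, and the longest Ldha model begins 4329 bases before it, so parts of these windows lie inside the annotated gene, while the Hk1, Hk2, Hk3 and Ldhb windows lie outside it.

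Astrocytes and choroid plexus epithelium held the highest summed levels of the 32 genes, and microglia, border macrophages and the neuron lineage the lowest. The sum was 19120 and 19820 CPM in astrocytes, which is 1.91% and 1.98% of their UMIs, and 15890 and 16290 CPM in choroid plexus. Microglia, the most numerous class, held 4570 and 4619 CPM, or 0.457% and 0.462% of their UMIs, the neuron lineage 4143 and 4158 CPM, and border macrophages 2765 and 2562 CPM. Between these lay endothelial cells (10260 and 10030 CPM), ependymal cells (6358 and 6231 CPM) and mural cells (5299 and 5289 CPM). A single gene set much of 2 of these sums: without Aldoc the astrocyte sum was 12050 and 12580 CPM, below choroid plexus, and Slc2a1 made up 6526 and 6385 CPM of the endothelial sum. The 2 libraries gave the same order of the 8 classes.

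**Figure D1:**
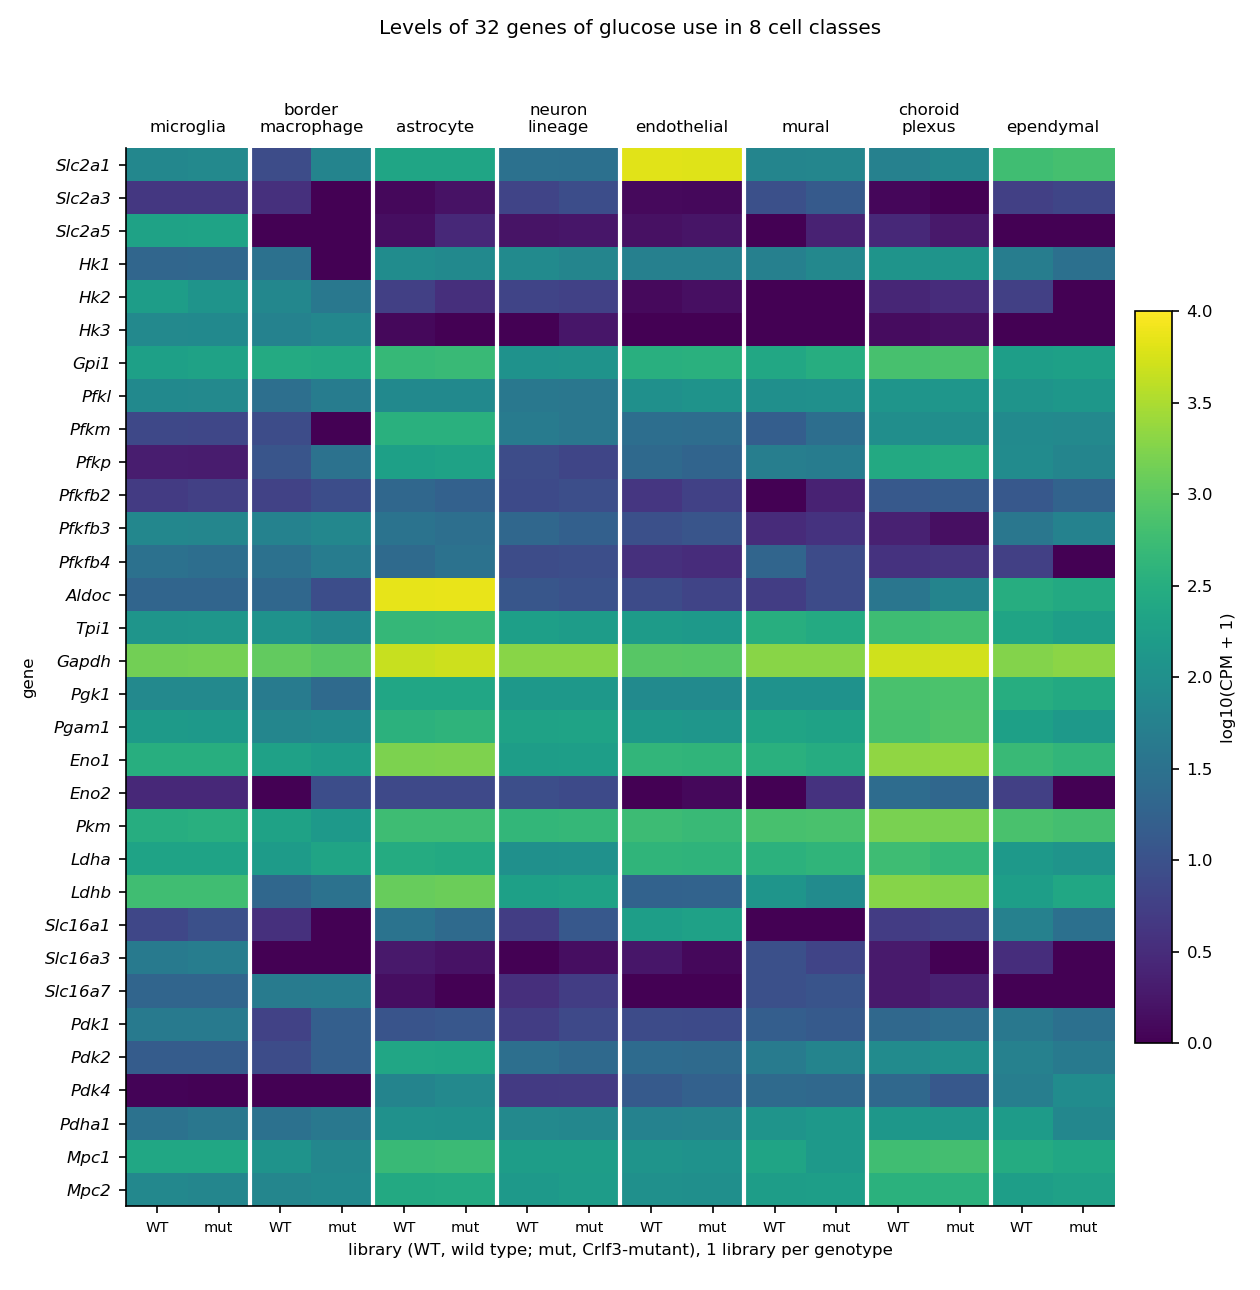
Level of each of the 32 genes (rows) in 8 cell classes (column pairs, wild type left and Crlf3-mutant right), coloured by log10(CPM + 1). The columns of a pair look alike. Slc2a1 stands out in endothelial cells, Aldoc in astrocytes, Slc2a5 and Hk2 in microglia, and Hk3 in microglia and border macrophages. The lower glycolytic enzymes stand out in choroid plexus and astrocytes.

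Choroid plexus was the class with the highest level for more of these genes than any other. A gene entered this count if its highest class had at least 50 CPM and 30 UMIs in each library, which 22 of the 32 genes reached. In both libraries 13 of the 22 were highest in choroid plexus, beside 9.32% of the 6622 genes of the files that reached the same level. Another 3 were highest in microglia (Slc2a5, Hk2 and Hk3; 10.3% of all genes), 3 in astrocytes (Pfkm, Aldoc and Pdk2; 12.4%) and 2 in endothelial cells (Slc2a1 and Slc16a1; 11.5%), which leaves 1 gene, Pdha1, whose highest class differed between the libraries (ependymal cells at 153 CPM in wild type, mural cells at 135 CPM in the mutant). No gene was highest in the neuron lineage in both libraries, although that class was highest for 28.3% of all genes. The choroid plexus value is a share of a library in which the class's own 10 markers took 259800 and 247500 CPM. Counted per cell instead, the 32 genes gave 199 and 253 UMIs in choroid plexus, 115 and 149 in astrocytes, 50.1 and 56.6 in endothelial cells and 30.6 and 36.9 in microglia.

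Of the SLC2A carriers, Slc2a1 was the endothelial gene, the fructose carrier gene Slc2a5 the microglial gene, and Slc2a3 was scarce throughout. Slc2a1 reached 6526 CPM (6447 to 6606) in wild-type and 6385 CPM (6311 to 6460) in mutant endothelial cells, 10.9 and 9.68 times its level in ependymal cells (597 and 660 CPM). It stood at 221 CPM in astrocytes of both libraries, at 69.0 and 75.8 CPM in microglia and at 30.1 and 28.7 CPM in the neuron lineage. In mural cells it was at 65.8 and 68.0 CPM. Endothelial transcripts carried over into this class would give 326 and 274 CPM if all of its endothelial marker UMIs came that way. That is an upper estimate. How much of the mural Slc2a1 was carried over was not tested, so no level of its own is claimed for mural cells. In choroid plexus the 56.0 and 70.2 CPM were above such an estimate for ependymal transcripts, 36.7 and 43.7 CPM.

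Slc2a5 was counted at 199 CPM (194 to 204) and 209 CPM (203 to 214) in microglia and at no more than 1.92 CPM in any other class. The next class was choroid plexus in wild type (1.87 CPM from 10 UMIs) and astrocytes in the mutant (1.92 CPM from 7 UMIs). With every cell thinned to 2000 UMIs, 32.5% and 33.6% of microglia held an Slc2a5 transcript (66.2% and 72.8% before thinning), beside 0.128% and 0% of endothelial cells (0.248% and 0.38% before thinning), whose median depth was 4527 and 5246.5 UMIs beside 6344.5 and 7725 in microglia. The thinned share was thus far above the share in a class that should lack the gene. Slc2a5 made up 73.3% and 72.5% of the SLC2A carrier UMIs of microglia and Slc2a1 25.4% and 26.3%. Slc2a1 held 99.7% and 98.9% in astrocytes and 82.8% and 77.1% in the neuron lineage. Because Slc2a5 encodes a fructose carrier, its share in microglia is not a share of glucose uptake. Of the other carriers, Slc2a1 had 2044 and 1956 UMIs in microglia and Slc2a3 104 and 88. Slc2a3, which encodes GLUT3 and is known as the carrier of mature neurons, stayed at or below 12.8 CPM everywhere, with 5.65 and 7.75 CPM in the neuron lineage.

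Hexokinase was divided between the genes by class, and microglia were the only class of the 8 in which Hk2 led in both libraries. Hk2, an inducible hexokinase that binds mitochondria, was at 168 CPM (164 to 173) in wild-type and 118 CPM (114 to 122) in mutant microglia, from 4984 and 3044 UMIs. Outside microglia and border macrophages it did not pass 5.65 CPM. In border macrophages its 71.2 and 38.8 CPM came from 28 and 5 UMIs, beside an upper estimate of 47.6 and 28.4 CPM for carried-over microglial transcripts. The microglial carrier gene Slc2a5 had 0 UMIs in border macrophages of either library. How much of their Hk2 was carried over was not tested. Thinned to 2000 UMIs, 27.7% and 20.8% of microglia held an Hk2 transcript (62.3% and 54.9% before thinning), beside 0% and 0.26% of endothelial cells (0.124% and 0.253%).

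Hk3, a hexokinase of myeloid cells, was at 74.9 and 76.9 CPM in microglia and at no more than 0.775 CPM outside microglia and border macrophages. In border macrophages it was at 58.5 and 69.9 CPM, from 23 and 9 UMIs, with intervals that overlapped those of microglia. Hk1, the hexokinase expressed in most tissues, was at 20.1 and 20.7 CPM in microglia and highest in choroid plexus, at 117 CPM in both libraries, followed by astrocytes (86.2 and 77.4 CPM) and the neuron lineage (79.8 and 65.1 CPM). As shares of the hexokinase UMIs of microglia, Hk2 held 63.9% (62.8 to 65, exact binomial 95% interval) and 54.7% (53.4 to 56.1), Hk3 28.5% and 35.7%, and Hk1 7.63% and 9.59%. Hk1 held 94.6% and 96.9% in astrocytes, 93.4% and 91.8% in the neuron lineage, 99.5% and 99.2% in endothelial cells and 98.3% and 97.8% in choroid plexus. Of the promoter windows above, that of Hk2 holds ACGTG and that of Hk1, 1 of its 2 RefSeq windows, does not. Among the carriers it is the Slc2a1 window that holds ACGTG and not the Slc2a5 window. A link of the motif to the levels was not tested. In border macrophages the leader was Hk2 in wild type (44.4% of 63 UMIs) and Hk3 in the mutant, where only 14 UMIs were counted.

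**Figure D2:**
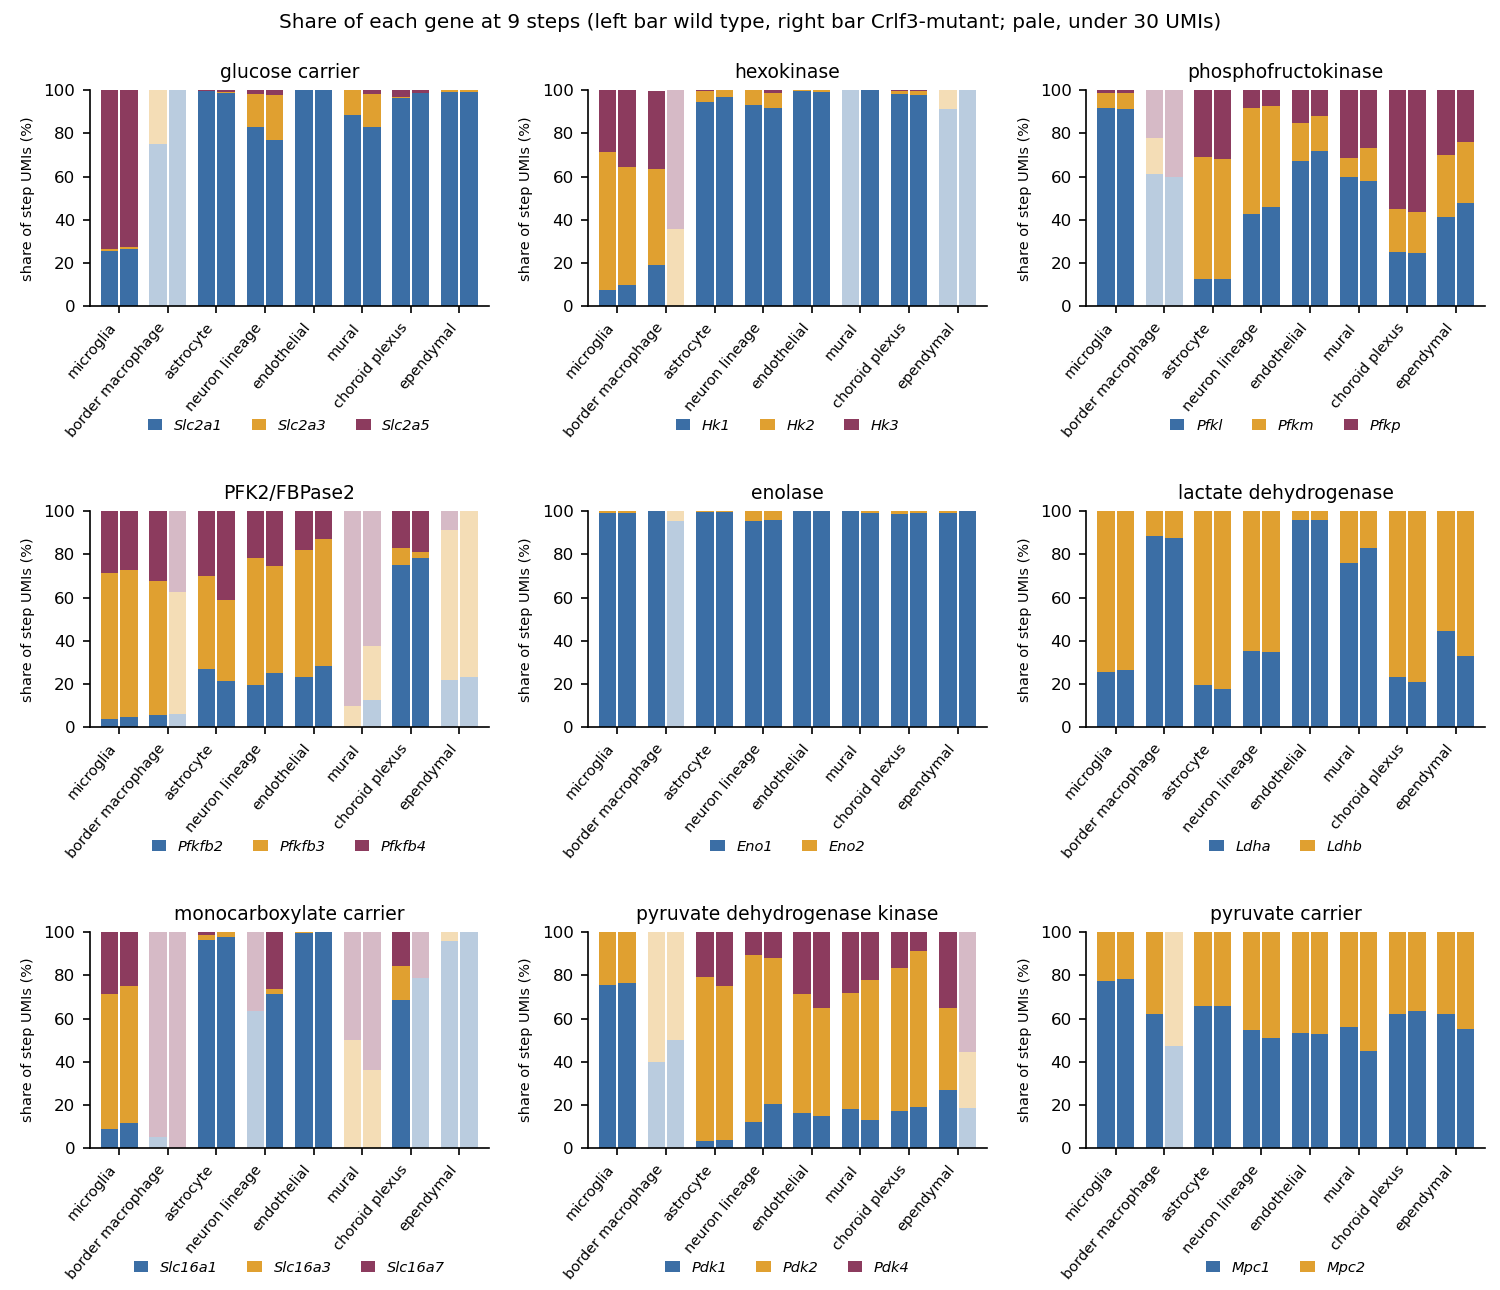
Share of the UMIs of a step held by each of its genes (stacked bars, percent) in 8 cell classes at 9 steps that have several genes, with the wild-type bar left and the Crlf3-mutant bar right; pale bars rest on under 30 UMIs. Slc2a5, Hk2 and Pdk1 lead in microglia, where most other classes are led by Slc2a1, Hk1 and Pdk2. Pfkl leads in microglia and also in border macrophages, endothelial, mural and ependymal cells.

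Gpi1, which turns glucose 6-phosphate into fructose 6-phosphate, was found in all 8 classes, from 684 and 713 CPM in choroid plexus and 477 and 514 CPM in astrocytes to 188 and 198 CPM in microglia and 109 and 114 CPM in the neuron lineage. Phosphofructokinase, the committed step, is built from liver (Pfkl), muscle (Pfkm) and platelet (Pfkp) subunits, and which one led differed between classes. Pfkl held 91.6% and 91.3% of the step's UMIs in microglia and 67.3% and 72.0% in endothelial cells. Pfkm held 56.4% and 55.6% in astrocytes, and Pfkp 55.2% and 56.4% in choroid plexus.

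Pfkl varied less between the classes than Pfkm and Pfkp did. Pfkl lay between 27.9 and 130 CPM over the 8 classes, with 79.5 and 76.1 CPM in microglia and 77.6 and 77.1 CPM in astrocytes. Pfkm was at 343 and 345 CPM in astrocytes and 6.25 and 6.16 CPM in microglia. Pfkp was at 268 and 283 CPM in choroid plexus, 188 and 198 CPM in astrocytes and 1.08 and 1.05 CPM in microglia. Summed, the 3 genes gave 608.7 and 620.9 CPM in astrocytes, 484.6 and 501.4 CPM in choroid plexus and 86.8 and 83.3 CPM in microglia.

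The Pfkfb genes encode enzymes that make and break fructose 2,6-bisphosphate, the activator of phosphofructokinase, and all 3 were low. Pfkfb3 led in microglia with 69.5 and 66.5 CPM, 67.5% and 68.0% of the step, ahead of Pfkfb4 at 29.6 and 26.5 CPM. Pfkfb2 led in choroid plexus with 12.3 and 12.9 CPM, 75.0% and 78.4% of the step. In astrocytes the leader differed between libraries: Pfkfb3 was at 32.7 and 28.3 CPM and Pfkfb4 at 23.0 and 31.0 CPM, so their shares were 42.8% and 30.1% in wild type but 37.5% and 41.1% in the mutant.

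Aldoc, the brain aldolase and a known astrocyte gene, was the most abundant of the 32 in astrocytes. It reached 7069 CPM (6992 to 7145) and 7243 CPM (7156 to 7331) there, 22.7 and 27.3 times its level in ependymal cells (311 and 265 CPM), where an estimate for carried-over astrocyte transcripts was 600 and 610 CPM. It was at 36.4 and 62.6 CPM in choroid plexus, 19.4 and 19.1 CPM in microglia and 10.7 and 9.30 CPM in the neuron lineage. Thinned to 2000 UMIs, 99.7% and 100% of astrocytes held an Aldoc transcript, beside 1.18% and 1.36% of the neuron lineage. Aldoa, the aldolase of most other tissues, carries the name of 2 rows in the gene table and was not used.

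From triose-phosphate isomerase to pyruvate kinase, the same classes led gene after gene: choroid plexus first, astrocytes second for all but Pgk1, Eno2 and Pkm. Gapdh, the dehydrogenase that makes NADH, was at 5136 and 5340 CPM in choroid plexus, 4637 and 4930 CPM in astrocytes, 1385 and 1446 CPM in microglia and 904 and 866 CPM in endothelial cells, its lowest class. Eno1, the enolase of most tissues, was at 2133 and 2235 CPM in choroid plexus, 1596 and 1668 CPM in astrocytes, 327 and 323 CPM in microglia and 166 and 174 CPM in the neuron lineage. Pkm, the pyruvate kinase gene, whose M1 and M2 splice forms the counts do not separate, was at 1542 and 1572 CPM in choroid plexus, 688 and 717 CPM in mural cells and 569 and 566 CPM in astrocytes. The neuron lineage lay above microglia for Gapdh (1920 and 1918 CPM) but below them for Eno1, so the classes did not keep 1 order from gene to gene.

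Tpi1, Pgk1 and Pgam1 encode triose-phosphate isomerase, phosphoglycerate kinase and phosphoglycerate mutase. Their levels in choroid plexus were 564 and 612, 706 and 739, and 697 and 783 CPM, and in microglia 119 and 125, 74.6 and 74.9, and 151 and 144 CPM. Eno2, the enolase known from neurons, was low everywhere, highest in choroid plexus at 25.4 and 20.4 CPM and at 8.16 and 6.97 CPM in the neuron lineage, so Eno1 held at least 95.3% of enolase UMIs in every class. The 7 genes together gave 10800 and 11300 CPM in choroid plexus, 7875 and 8286 CPM in astrocytes, 2373 and 2444 CPM in microglia and 2249 and 2132 CPM in endothelial cells. Endothelial cells, with the highest carrier level, thus had the lowest lower-glycolysis sum after border macrophages (1710 and 1413 CPM). Gapdh, Pkm, Ldha, Pgk1, Tpi1, Eno1 and Pgam1 have near-identical pseudogene copies, and how reads shared with them were counted is not given in the sources used here, so their absolute levels are uncertain.

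Lactate dehydrogenase divided the vessel wall from the glia. Ldha held 96.0% and 95.8% of the step's UMIs in endothelial cells, 76.0% and 83.1% in mural cells and 88.6% and 87.5% in border macrophages. Ldhb held 80.6% and 82.2% in astrocytes, 76.9% and 79.0% in choroid plexus, 74.4% and 73.7% in microglia and 64.6% and 65.1% in the neuron lineage. Microglia and border macrophages, which shared Hk2 and Hk3, were on opposite sides at this step. The border macrophage share rests on 70 and 32 UMIs.

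The range of Ldhb across classes was wider than that of Ldha. Ldhb was at 1906 and 1752 CPM in choroid plexus, 1187 and 1257 CPM in astrocytes, 593 and 584 CPM in microglia and 17.0 and 17.7 CPM in endothelial cells. Ldha was at 573 and 467 CPM in choroid plexus, 413 and 405 CPM in endothelial cells, 286 and 273 CPM in astrocytes, 204 and 208 CPM in microglia and 102 and 106 CPM in the neuron lineage, its lowest class. Thinned to 2000 UMIs, 84.9% and 86.9% of astrocytes and 65.5% and 65.7% of microglia held an Ldhb transcript, beside 2.70% and 3.38% of endothelial cells. The promoter window of Ldha, 1 of its 2 RefSeq windows, held 5 ACGTG matches and that of Ldhb none, and a link to the levels was not tested.

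Of the monocarboxylate carriers, Slc16a1 (MCT1), which carries lactate and ketone bodies across the blood-brain barrier, was at 172 CPM (160 to 186) and 195 CPM (182 to 208) in endothelial cells. It held 99.6% and 99.9% of the step there and 96.2% and 97.7% in astrocytes, at 32.5 and 23.3 CPM, and no Slc16a1 transcript was counted in mural cells of either library, which allows up to 7.83 and 5.23 CPM by the upper bound of the interval. Slc16a3 (MCT4), a low-affinity carrier linked to lactate export, led in microglia with 41.4 and 48.4 CPM, 62.4% and 63.6% of the step. Slc16a7 (MCT2), a high-affinity carrier known from neurons, was at 18.9 and 19.0 CPM in microglia and at 45.7 and 46.6 CPM in border macrophages.

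Among the pyruvate dehydrogenase kinases, microglia were led by Pdk1, while astrocytes, choroid plexus, endothelial cells, mural cells and the neuron lineage were led by Pdk2 in both libraries. Pdk1 held 75.4% and 76.3% of pyruvate dehydrogenase kinase UMIs in microglia, at 41.3 and 43.1 CPM. Pdk2 held 75.9% and 71.6% in astrocytes, at 229 and 221 CPM, and 65.9% and 72.4% in choroid plexus, at 82.9 and 97.7 CPM. Pdk4, a kinase induced by fasting and fatty acids, was at 62.8 and 76.6 CPM in astrocytes, 51.1 and 88.3 CPM in ependymal cells and 21.1 and 11.6 CPM in choroid plexus, and microglia had 3 and 1 UMIs of it.

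Pdha1, which encodes a catalytic subunit of pyruvate dehydrogenase, was at 153 and 70.7 CPM in ependymal cells (66 and 12 UMIs), 132 and 127 CPM in choroid plexus, 117 and 135 CPM in mural cells and 104 and 101 CPM in astrocytes. Mpc1 and Mpc2 encode the 2 subunits of the mitochondrial pyruvate carrier. Mpc1 was at 588 and 647 CPM in choroid plexus, 518 and 535 CPM in astrocytes and 244 and 243 CPM in microglia, and Mpc2 at 357 and 373 CPM in choroid plexus and 271 and 280 CPM in astrocytes. Mpc1 held 65.6% of the pair's UMIs in astrocytes of both libraries and 77.4% and 78.1% in microglia. Over the 9 steps with several genes and the 8 classes, the same gene led in both libraries in 65 of 72 pairs of step and class.

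Between the genotypes, the 32 genes were close to each other in every class with enough cells. The ratio of mutant to wild-type level was taken as log2((mutant CPM + 10)/(wild-type CPM + 10)) in the 6 classes with at least 100 cells in each library, for genes whose higher library held 50 CPM and 30 UMIs or more, and a gene was counted as higher or lower from 1.5 times. Of 100 such values over the 6 classes 1 passed 1.5 times, Aldoc in choroid plexus. In microglia, 17 of the 32 genes were measured and 0 were 1.5 times higher (background 0.062% of 3228 measured genes) or lower (0.062%), with a median log2 ratio of 0.005 beside 0.009 for all measured genes. In astrocytes 20 were measured and 0 were higher (0%) or lower (0.167%), with a median of 0.04 beside 0.001. In the neuron lineage 13 were measured and 0 were higher (0.314%) or lower (0.134%), with a median of 0.015 beside -0.001.

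In endothelial cells 15 of the genes were measured and 0 were higher (0%) or lower (0.0281%), with a median of -0.032 beside 0.007. In mural cells 16 were measured and 0 were higher (3.29%) or lower (2%), with a median of 0.049 beside 0.028. In choroid plexus 19 were measured, 1 was higher (0.308%) and 0 were lower (0.385%), with a median of 0.061 beside 0.059. The medians of these genes lay near those of all genes. Beside backgrounds of 0% to 3.29%, the counts of 0 are nothing particular to them. In choroid plexus the count rests on 1 gene, Aldoc, beside a background of 0.308%. Its log2 ratio ranked 2590 from the lowest of 2596 genes there. Genes under the level minimum were left out by it, 15 of the 32 in microglia and 19 in the neuron lineage.

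**Figure D3:**
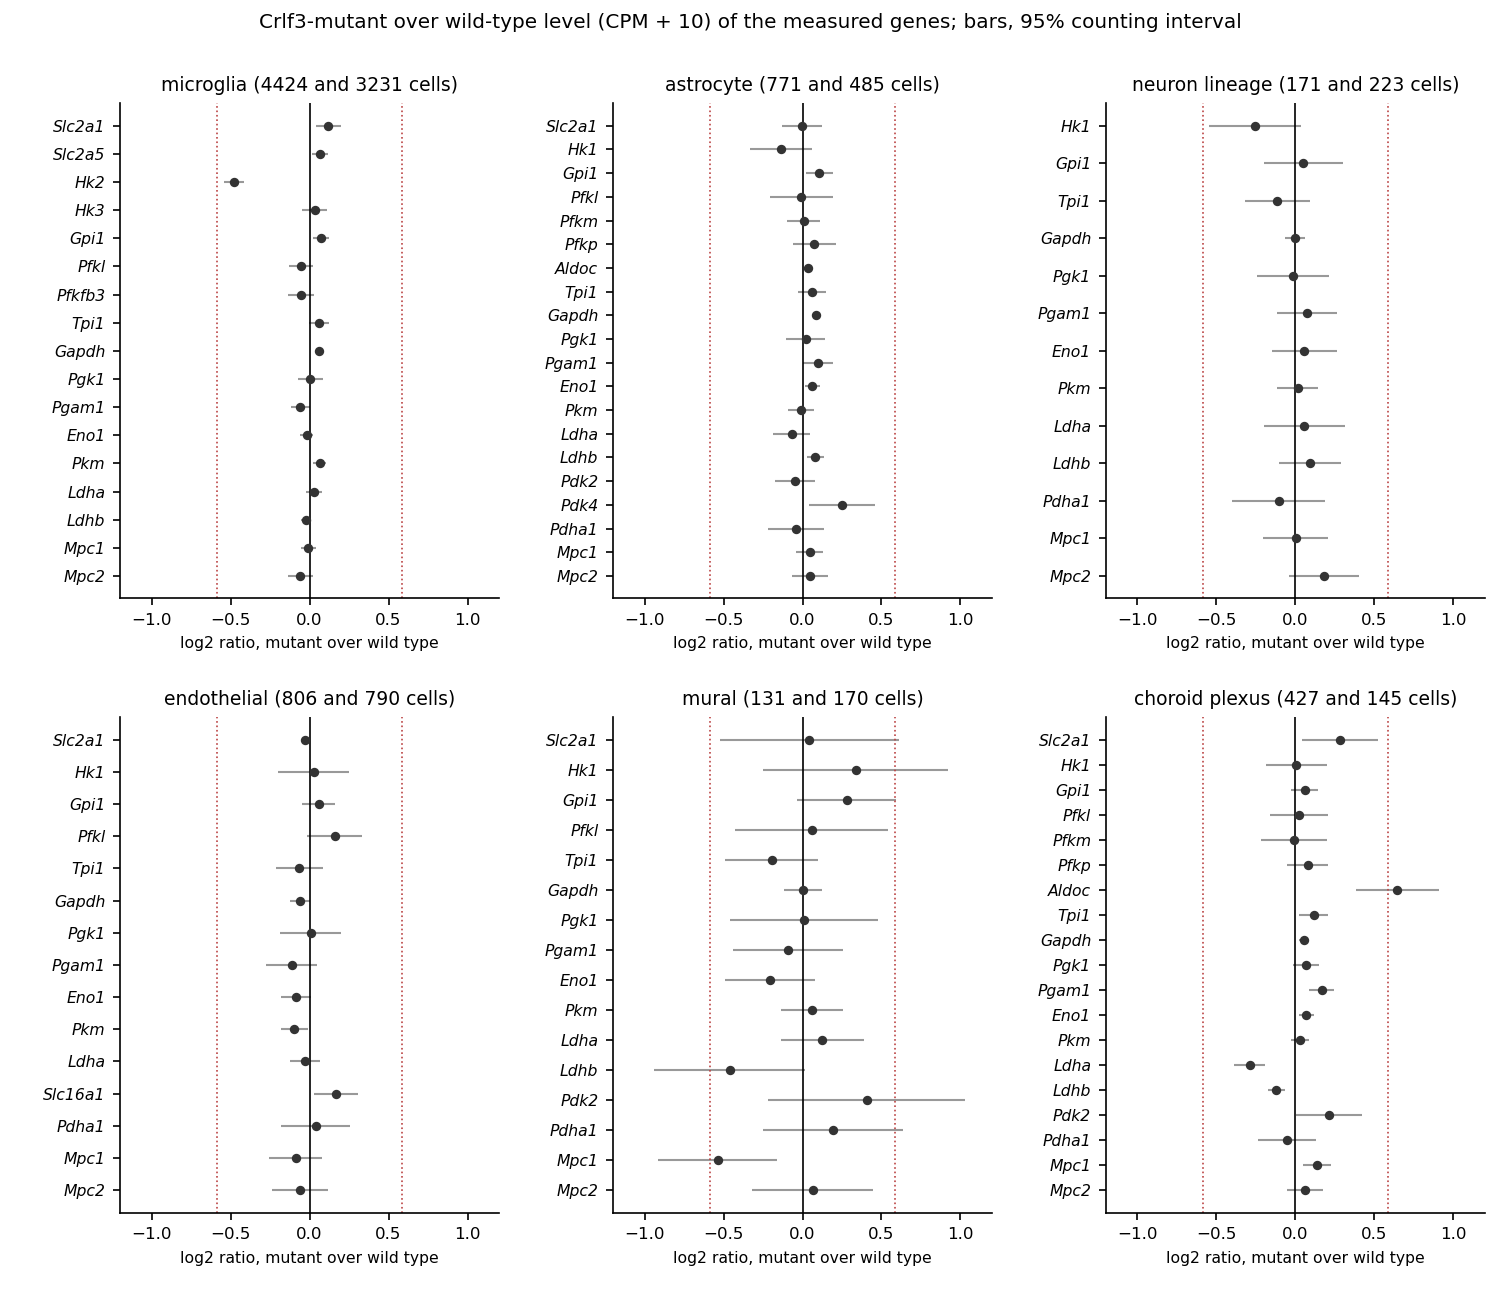
Log2 ratio of Crlf3-mutant over wild-type level (CPM + 10) of the measured genes in 6 cell classes (points) with 95% counting intervals (bars); the solid line is 0 and the dotted lines are 1.5 times. All points but Aldoc in choroid plexus (0.65) lie between the dotted lines, and Hk2 is the lowest point in microglia (-0.48).

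Aldoc was counted in choroid plexus at 36.4 CPM (wild type) and 62.6 CPM (mutant), from 195 and 141 UMIs, a log2 ratio of 0.65 (0.39 to 0.91). The 10 astrocyte markers summed to 110.9 and 180.7 CPM in the same cells, and carried-over astrocyte transcripts at that rate would give 31.5 and 53.6 CPM of Aldoc. The marker level and the Aldoc level were thus both higher in the mutant library, and the part of the one in the other was not tested. With a pseudocount of 50 CPM the log2 ratio was 0.38, below 1.5 times. It was also below 1.5 times with stricter cells, with doublets kept and with means of per-cell CPM, and below the level minimum with thinned cells.

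Hk2 in microglia differed more between the libraries than any other of these genes in microglia, astrocytes, the neuron lineage or endothelial cells. It was lower in the mutant library, 118 beside 168 CPM, a log2 ratio of -0.48 (-0.54 to -0.42), the 5th lowest of 3228 measured genes. It was lower in the mutant library within every range of microglia looked at, with intervals that did not overlap: 166 and 124 CPM in cells high in the chemokine genes Ccl3 and Ccl4, 168.5 and 118.4 CPM in cells low in them, 174 and 122 CPM in cells high in the heat shock genes Hspa1a and Hspa1b, and 167 and 120 CPM in cells low in those. Over the alternative settings it lay between -0.53 and -0.38 and never reached 1.5 times. Hk3, at 74.9 and 76.9 CPM, and Hk1, at 20.1 and 20.7 CPM, differed by less, and the summed hexokinase level of microglia was 263.4 and 215.5 CPM. As the only pool of each genotype, these libraries cannot tell genotype apart from animal or preparation.

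In choroid plexus Ldha was lower in the mutant, 467 beside 573 CPM, a log2 ratio of -0.29 (-0.39 to -0.19), which ranked 71 from the lowest of 2596 genes, while Ldhb differed by -0.12. In mural cells Mpc1 was at 214 and 145 CPM, a log2 ratio of -0.54 (-0.91 to -0.16), rank 92 of 3644. Its counts there were 101 and 102 UMIs, so the interval is wide. In astrocytes Pdk4 was at 62.8 and 76.6 CPM, a log2 ratio of 0.25 (0.04 to 0.46).

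Slc2a1 in the neuron lineage depended on how cells were assigned. By marker UMIs it was at 30.1 and 28.7 CPM, a log2 ratio of -0.05, with the 10 endothelial markers summing to 11.9 and 10.1 CPM. When classes were taken from clusters of cells instead, it was at 78.7 and 37.1 CPM, a log2 ratio of -0.91, with endothelial markers at 88.7 and 49.1 CPM. The endothelial markers moved with Slc2a1 between these assignments. Their part in the value was not tested.

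Within classes, several of the genes differed between ranges of cells. These ranges are cut from summed marker UMIs per 10000 UMIs, not separate types, and cells between the cuts were left out. Chemokine-high microglia (813 and 371 cells, 50 or more Ccl3 and Ccl4 UMIs per 10000) were compared with chemokine-low microglia (2300 and 1922 cells, under 5), with 1311 and 938 cells left out and 288 and 174 cells within 20% of the upper cut. Of 17 genes measured in both libraries, 1 was at least 1.5 times higher in both (background 1.35%) and 0 were lower (0.0314%). That gene was Pfkfb3, at 95.2 beside 57.7 CPM in the wild-type library and 90.1 beside 55.7 CPM in the other, log2 ratios of 0.64 and 0.61.

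Other glycolytic genes were also higher in chemokine-high microglia by less than 1.5 times, among them Tpi1 (log2 0.54 and 0.34) and Pgk1 (0.43 and 0.42), and the median over the 17 was 0.20 and 0.18 beside -0.055 and -0.046 for all genes. Slc2a5 went the other way, at 169 beside 217 CPM in the wild-type library and 165 beside 225 CPM in the mutant. Hk3 (log2 -0.06 and -0.24), Ldhb (-0.10 and -0.06), Mpc1 (-0.08 and -0.14) and Mpc2 (-0.10 and -0.14) were also lower in both libraries, by less. Hk2 differed little, with opposite signs (-0.02 and 0.06). Between heat-shock-high and heat-shock-low microglia 18 genes were measured, and 0 were 1.5 times higher or lower in both libraries, beside 0.28% and 0.623% of all genes.

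**Figure D4:**
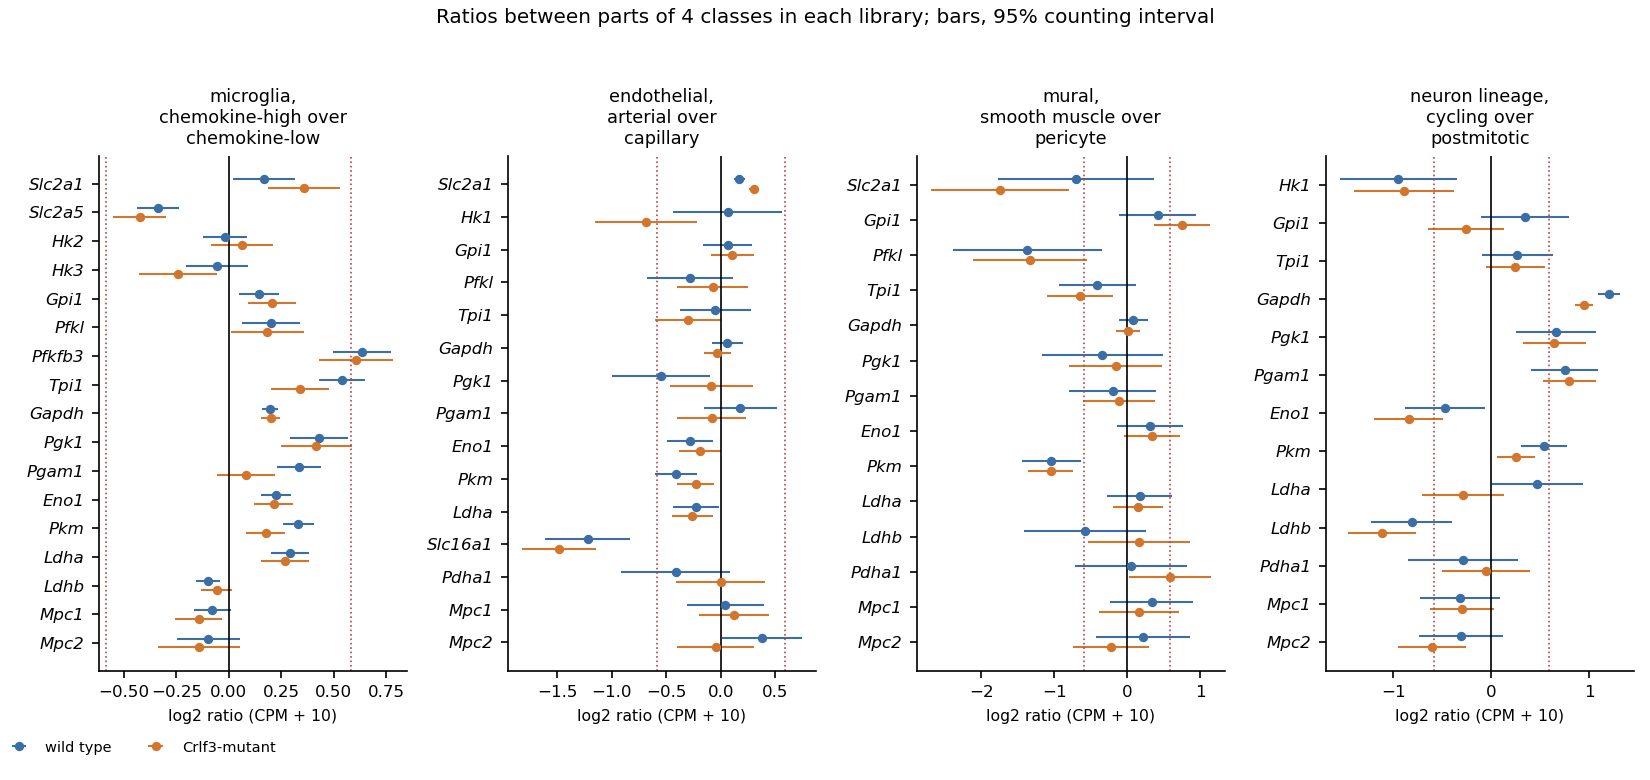
Log2 ratio between 2 ranges of cells within microglia, endothelial cells, mural cells and the neuron lineage (panels; blue wild type, orange Crlf3-mutant), on CPM + 10, for the genes measured in both libraries, with 95% counting intervals and dotted lines at 1.5 times. Pfkfb3 lies past the line in microglia (0.64 and 0.61), Slc16a1 in endothelial cells (-1.22 and -1.49), and Pkm in mural cells (-1.04 and -1.05).

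Arterial-like endothelial cells (132 and 146 cells, by Gkn3, Bmx and other arterial genes) were set beside capillary cells (287 and 304). The arterial, venous and capillary ranges left out 284 and 252 cells. In 64 and 73 cells the summed arterial markers lay within 20% of the upper arterial cut, and cells near the venous cut were not counted. Of 15 genes 0 were higher in both libraries (2.96%) and 1 was lower (1.63%), Slc16a1, at 77.1 beside 193 CPM in the wild-type library and 75.6 beside 230 CPM in the mutant, log2 ratios of -1.22 and -1.49. Venous cells (103 and 88) had Slc16a1 at 253 and 266 CPM, on the capillary side. Slc2a1 was at 7088 beside 6312 CPM and 7443 beside 6038 CPM, so the glucose carrier of the barrier did not share the lower arterial level of its lactate carrier.

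Smooth muscle cells (19 and 30 cells, 200 or more contractile marker UMIs per 10000) and pericytes (107 and 132 cells, under 100) differed in Pkm and Pfkl. Of 14 genes 0 were higher in smooth muscle in both libraries (12.6%) and 3 were lower (23.5%), a share near the background: Pkm, Pfkl and Slc2a1. Pkm was at 400 beside 830 CPM in the wild-type library and 425 beside 889 CPM in the mutant. Pfkl was at 42.8 beside 126 CPM and 46.7 beside 133 CPM, from 6 and 11 smooth muscle UMIs. Slc2a1 was at 42.8 beside 75.8 CPM and 21.2 beside 94.5 CPM, from 6 and 5 smooth muscle UMIs, its wild-type log2 ratio of -0.70 has an interval that includes 0 (-1.76 to 0.37), and its mural level lay below the endothelial carry-over estimate given above.

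In the neuron lineage, cycling progenitors (29 and 36 cells) were set beside postmitotic neuroblasts (117 and 158 cells). Of 13 genes 3 were higher in cycling cells in both libraries (background 12.7%) and 2 were lower (13.8%). Beside backgrounds of this size, such counts are nothing particular to these genes. Gapdh, Pgk1 and Pgam1 were the higher genes, with Gapdh at 3110 beside 1352 CPM and 2724 beside 1412 CPM. Hk1 and Ldhb were the lower ones. Hk1 was at 46.4 beside 98.8 CPM in the wild-type library and 38.8 beside 80.7 CPM in the mutant, and Ldhb at 122 beside 222 CPM and 105 beside 240 CPM. Ldha, in contrast, had log2 ratios of opposite sign in the 2 libraries (0.47 and -0.29).

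Genes beside the pathway were taken from 7 lists with 75 genes, of which 74 were matched. In microglia, astrocytes, the neuron lineage, endothelial cells and choroid plexus, 14, 26, 17, 16 and 23 list genes were measured and 0 were 1.5 times apart between genotypes in any of them. In mural cells 0 of 16 were higher and 1 was lower, Bsg, the partner that brings MCT1 to the membrane, at 824 and 540 CPM (log2 -0.60). Endothelial markers in mural cells were at 968 and 866 CPM. Carried-over endothelial transcripts at that rate would give 941 and 818 CPM of Bsg, above both values. That is an upper estimate, and mural Slc2a1, given above, lay well below its own estimate at the same rate. How much of the Bsg in mural cells was carried over was not tested. The list of glycogen metabolism had 7 of 12 genes measured in astrocytes, the glycogen store of the brain, and 0 of 12 in microglia, with Pygb, the brain glycogen phosphorylase, at 395 and 384 CPM in astrocytes. The list medians in astrocytes were -0.041 for glycogen metabolism, 0.001 for the pentose phosphate pathway (3 of 8 measured, Tkt at 475 CPM in both libraries), -0.001 for the cytosolic NADH shuttles (4 of 8) and -0.017 for the pyruvate dehydrogenase complex and its regulators (4 of 9), beside 0.001 for all genes.

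The remaining lists set the carriers and enzymes in context. Among other carriers and their partners, Bsg was at 18830 and 19070 CPM in endothelial cells and 3523 and 3640 CPM in choroid plexus, far above Slc16a1 in the same cells. Choroid plexus also held Slc16a8 (MCT3, known from epithelia facing fluid) at 90.4 and 83.5 CPM and Slc2a12 (GLUT12) at 116 and 135 CPM, beside 4.11 and 4.88 CPM of Slc16a1. Among hypoxia-inducible factors and glucose sensors, 6 of 10 were measured in microglia, where Txnip, a glucose-responsive brake on uptake, was at 794 and 766 CPM and Hif1a at 98.5 and 100.3 CPM, and Epas1 (HIF-2 alpha) was at 995 and 1075 CPM in endothelial cells. Of the other glycolytic enzymes, 1 of the 15 matched genes was measured in astrocytes (Bpgm at 65.3 and 66.7 CPM) and 0 in the other 5 classes, and the 15 genes summed to 59.1 and 57.8 CPM in microglia and 128 and 131 CPM in astrocytes.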

How the data were processed

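Live-sorted hippocampal cells were sequenced with the 10x Genomics Chromium 5′ kit, 1 library per genotype. The authors deposited filtered matrices of raw UMI counts per gene and cell, made with Cell Ranger 6.1.1 on the mm10 mouse genome, per the labels' protocols. Partek is listed without a role in the submitters' processing notes, and the handling of reads shared with pseudogenes is not given in the sources used here. The matrices hold 7713 wild-type and 5720 mutant barcodes with 51328178 and 43103469 UMIs.

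Barcodes were kept from 500 genes and 1000 UMIs upward if no more than 10% of UMIs were mitochondrial (7246 and 5353), and doublets called by Scrublet (scanpy 1.11.5, expected rate 0.06) were removed, 131 and 92 (1.81% and 1.72%). A cell was given the class whose summed marker UMIs per 10000 passed a threshold and exceeded those of every other class, each divided by its threshold, 3 times (2 times for border macrophages over microglia). This left 231 and 141 cells unassigned and put 44 and 37 in classes not described. At least 98.5% of each described class lay in Leiden clusters of the same name. Raw UMIs were summed per library and class and divided by their total (CPM). Carry-over was estimated as a class's level of another class's markers, as a share of their level in that class, times the gene's level there, taking the class that gives the most; it is an upper estimate. Shares have exact binomial (Clopper-Pearson) 95% intervals and log2 ratios a counting interval. The self-test on simulated data recovered known ratios, which is a check of the calculation only. It cannot show the spread between animals or libraries, because each genotype had 1 library. No test between genotypes was possible. Alternatives were 2 other pseudocounts, no minimum, stricter and looser cells, doublets kept, clusters as classes, thinned cells and means of per-cell CPM. Further ones were 2 other scalings, cells of either sex, and cells with under 50 microglial marker UMIs.

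The members, marker lists and pathway lists were chosen with earlier results of these data known. Any of the 32 genes may be named; of a list, those past 1.5 times in a class and otherwise at most the 3 most abundant, and Slc16a8 was further named after its values were seen.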

Additional observations from a re-analysis of the deposited data

How the results depend on the processing

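Over 14 alternative settings the 100 member ratios between genotypes gave 1364 values, of which 1261 stayed within the counting interval, 103 moved beyond it and 0 reversed a value past 1.5 times. The median log2 ratios stayed between the median lower and median upper counting bound of the genes under all settings that gave a value. This range is about as wide as that of a single gene, -0.374 to 0.418 in mural cells. It is not an interval of the median, so staying inside it is a weak check. The number of genes 1.5 times apart in choroid plexus was 0 in place of 1 with a pseudocount of 50 CPM, stricter cells, doublets kept, thinned cells and means of per-cell CPM. In the neuron lineage it was 1 in place of 0 with no level minimum (Slc16a1, 4.40 and 11.6 CPM) and with clusters as classes (Slc2a1). In mural cells it was 1 in place of 0 with no minimum (Pfkfb4), with thinned cells (Mpc1) and with cells holding Y-linked transcripts and no Xist (Gpi1), 2 with means of per-cell CPM (Ldhb and Mpc1) and 3 with clusters as classes (Aldoc, Ldhb and Mpc1); the cause was not tested. The gene leading a step was the same under every alternative and in both libraries for 53 of 72 pairs of step and class. Cells with Xist and no Y-linked transcript gave no value in choroid plexus, with 4 and 1 cells. No paired analysis was possible because each genotype has 1 library. Depth limits genes under 50 CPM or 30 UMIs, and all values in border macrophages and ependymal cells.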
